A study of Homo sapiens with 8 samples.

Results

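Of the 10105 genes in the deposited count table, 86 encode transcription factors of the developmental homeobox, SOX, FOX and KLF kind. They were chosen by gene symbol alone, as the rows that begin with HOX, SOX, PAX, LHX, MEIS, PBX, IRX, ZIC, TBX, GATA, KLF, FOX or the root of SIX2, followed by the letter or digit of a family member, without TBXA genes, PAXIP1, PAXBP1 and hyphenated read-through names. The 86 comprised 28 HOX genes, 6 genes of the TALE class (MEIS, PBX and IRX genes), 3 PAX, 1 LHX, 4 sine oculis homologs (SIX2 and its relatives), 6 SOX, 19 FOX, 7 KLF, 3 ZIC, 5 TBX and 4 GATA genes. The study compared wild-type (WT) HEK293T cells, an established line derived from human embryonic kidney, with HEK293T cells lacking XRN1, the cytoplasmic 5′-to-3′ exoribonuclease that degrades decapped mRNA. Both genotypes were plated on dishes 24 h before harvest, and the sources used here name no further treatment. Each genotype gave 2 RNA-Seq and 2 Ribo-Seq libraries, 8 in all. RNA-Seq measured mRNA abundance, and Ribo-Seq measured ribosome-protected fragments (RPF), the stretches of mRNA that translating ribosomes shield from nuclease. The XRN1-null cells were 1 line edited with CRISPR/Cas9, so the loss of XRN1 and other differences of that line cannot be told apart.

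HOX proteins bind DNA through the homeodomain and specify position along the body axis, and their genes lie in clusters in which gene order follows the order of expression. MEIS and PBX proteins are homeodomain cofactors that bind DNA together with HOX proteins, and the sine oculis homologs act with coactivators of the EYA family. In the embryonic kidney SIX2 marks the nephron progenitors, and the HOX genes of paralog group 11 act with EYA1 in its formation. SOX factors bind DNA through an HMG box, FOX factors through a forkhead domain, TBX factors through a T-box, and KLF, ZIC and GATA factors through zinc fingers.

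Total counts were 33757487 to 38145433 per RNA-Seq library and 1921641 to 4399542 per Ribo-Seq library, and all 86 genes had at least 10 counts in every RNA-Seq library and 76 of them in every Ribo-Seq library. The RNA-Seq was paired-end and its totals exceed the mapped reads given in the methods, so a fragment may stand in the table more than once and the counts are not numbers of fragments. Levels are given as CPM, a gene's counts relative to the scaled library total, which are shares of a library, so fewer cells with a transcript and less transcript per cell cannot be told apart. XRN1 itself had 33.5 and 33 CPM of mRNA in WT and 282 and 253 CPM in XRN1-null cells, and 34.4 and 49.8 CPM of RPF in WT against 22.6 and 18.4 CPM in XRN1-null cells. A count per gene does not resolve an edited exon, so these values are no check of the edit. Of 15 markers of the metanephric kidney progenitor, 10 had a row in the table, among them SIX2, WT1 and SALL1, while PAX2, PAX8, LHX1, OSR1 and EMX2 had none. Of the neuronal markers 4 of 8 had a row, of the epithelial ones 2 of 5 (KRT8 and KRT18), of the fibroblast ones 1 of 6 (COL1A1), of the pluripotent stem cell ones 1 of 4 (SOX2), and of the adrenal cortex, blood and endothelial ones 0. Their summed levels per length in WT and XRN1-null libraries were 150 to 154 and 163 to 166 FPKM for kidney progenitor, 79.1 to 99.1 and 68.7 to 70.4 for neuronal, 43.5 to 51.4 and 61.3 to 62.4 for epithelial, 2.34 to 2.59 and 6.22 to 6.29 for fibroblast markers, and 2.85 to 3.06 and 4.45 to 4.6 for SOX2; the part of any such shift in the results below was not tested. Of the kidney progenitor markers SIX2, EYA1, SALL1 and GATA3 fell and HOXD11 and HOXA11 rose, and of these SIX2, GATA3, HOXD11 and HOXA11 belong to the 86.

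The 5 genes whose RPF passed the test were all HOX genes, and the homeoboxes of HOXA5 and HOXA13, the first and the last of them along the A cluster, are shown because HOX genes resemble each other most in this stretch, where a short footprint is hardest to assign to 1 gene. Each sequence is the coding strand of the 180-base homeobox from the GENCODE transcript of GRCh37, with the 18 bases that encode the conserved Trp-Phe-x-Asn-Arg-Arg stretch of the DNA-contacting recognition helix in capitals.
HOXA5: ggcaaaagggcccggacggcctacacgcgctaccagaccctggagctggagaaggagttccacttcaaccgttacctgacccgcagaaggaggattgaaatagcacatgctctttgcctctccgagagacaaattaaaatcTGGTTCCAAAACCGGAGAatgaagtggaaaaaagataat
HOXA13: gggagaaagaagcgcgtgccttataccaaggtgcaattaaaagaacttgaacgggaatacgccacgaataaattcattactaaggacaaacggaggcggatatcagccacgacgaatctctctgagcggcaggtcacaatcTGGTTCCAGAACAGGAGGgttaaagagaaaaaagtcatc

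The homeoboxes of HOXA5 and HOXA13 were identical at 89 of 180 bases (49.4%) and at 28 of 60 encoded residues, with a longest identical run of 12 bases. HOXA13 and its paralog HOXC13 shared 137 of 180 bases (76.1%). Counted over the coding sequence in windows of 29 bases, close to the length of the footprints that were kept, 1.28% of HOXA5, 2.95% of HOXB5, 8.64% of HOXA6, 38.1% of HOXA9 and 0.088% of HOXA13 occurred in the transcript of another annotated gene. For HOXA9 the other gene was chiefly a read-through gene on the same strand, ENSG00000257184. Among all 86 genes 27 shared no such window and 18 shared over 5%. The highest shares were those of FOXP1 (100%), FOXD1 (97.9%) and SOX7 (79.2%), followed by FOXO3 (75.1%) and FOXO3B (70.5%), which are near copies of each other, FOXO1 (67.5%) and PBX2 (66.2%), which has a pseudogene copy.

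In WT cells HOX genes held most of the top places in mRNA level per length (FPKM, the CPM divided by the transcript length in kilobases). The HOX median was 15.7 FPKM with a range of 3.16 to 132, against 9.68 (2.46 to 132) for the 86 genes and 15 for all genes of the table, whose median 27 of the 86 exceeded. The 6 highest were HOXB9 at 132 FPKM, the cell cycle factor FOXM1 at 92.8, HOXD13 at 74.2, HOXA9 at 68.6, HOXB6 at 60.6 and HOXA5 at 57.1. The highest genes of the other families were SIX2 (35.3 FPKM), ZIC2 (35.1), PBX2 (34.7), SOX12 (23.6), TBX1 (22.6), KLF16 (19.2), GATA2 (12.1), PAX6 (3.02) and LHX4 (2.48). In XRN1-null cells the order at the top changed, with HOXA9 at 215 FPKM, HOXA5 at 212, HOXB9 at 157 and HOXA6 at 101 in the first 4 places; HOXA6 had been in place 13 in WT cells. All 86 genes were above 2 FPKM in both WT libraries, the minimum that the authors applied, and 84 were above it in every RNA-Seq library, with FOXF1 under it in both XRN1-null libraries and GATA3 in 1 of them (1.79 and 2.01 FPKM).

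**Figure D1:**
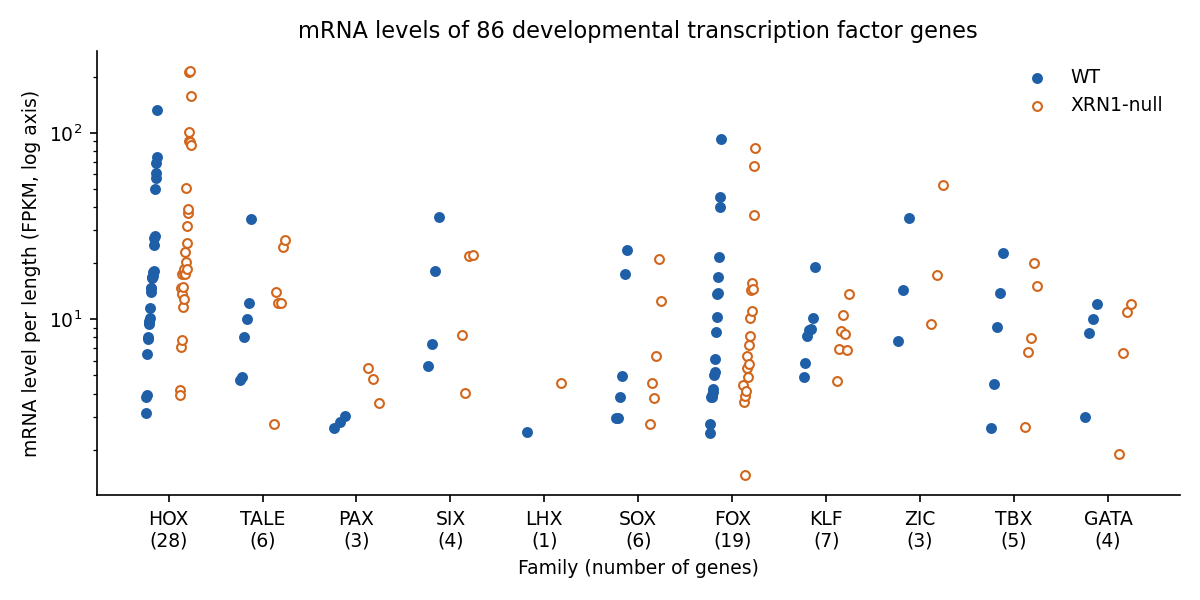
mRNA level per length of the 86 genes by family on a log axis, each point the mean of 2 RNA-Seq libraries, filled for WT and open for XRN1-null. HOX genes reach from 3.16 to 132 FPKM in WT cells and up to 215 FPKM in XRN1-null cells, while the 3 PAX genes and LHX4 lie near the lower limit.

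Footprint density relative to mRNA differed over a wide range within the group. Translational efficiency (TE), here RPF per kilobase of coding sequence divided by mRNA per kilobase of transcript, had a WT median of 1.38 for the 86 genes and 0.997 for the HOX genes, against 1.78 for all genes with a coding length, and 30 of the 86 were above that last value. FOXM1 was lowest at 0.199, followed by HOXD10 at 0.237 and HOXA6 at 0.25, although FOXM1 overlaps ITFG2 on the other strand. At the other end stood FOXO3B at 8.28, whose reads can belong to FOXO3, and FOXK1 at 5.33. These ratios are descriptions with no test, since the genes were not compared within a model.

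The loss of XRN1 was accompanied by higher mRNA of 33 of the 86 genes and lower mRNA of 12, while 41 passed in neither direction. Among all 10105 genes 22.9% were higher and 23.2% lower, so the share of 38.4% higher stood above that background and the share of 14% lower stood below it. Genes were called at a false discovery rate (FDR) below 0.005 from edgeR's quasi-likelihood test. Its p-values set the genotype difference against the spread between replicates, 2 per group, which is moderated over all genes. All folds are XRN1-null relative to WT. The median log2 fold change of the 86 was 0.26, against -0.01 over all genes. Of the 28 HOX genes 17 rose and 0 fell (median 0.54), and of the 58 others 16 rose and 12 fell (median 0.08), which is near the background in both directions. In 27 of the 28 HOX genes both XRN1-null libraries lay above both WT libraries, against 41.0% of all genes (in 43.7% both lay below), and HOXC13 was the exception with 19.1 and 19.5 CPM in WT against 19.9 and 17.2 CPM in XRN1-null cells. Of the 33 rises 24 and of the 12 falls 7 were called with any 1 RNA-Seq library left out. The 27 positive HOX changes were found with every scaling tried. At an FDR below 0.05, 49 of the 86 were higher in mRNA and 13 lower, against 32.8% and 34.2% of all genes. FOXP1 was the called gene nearest to the threshold (log2 fold change 0.36, FDR 0.0041), and HOXB9 (0.26, FDR 0.00675) was the nearest outside it.

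All 9 HOXA genes had higher mRNA in XRN1-null cells. Their log2 fold changes ran from 0.52 for HOXA11 to 1.90 for HOXA5 with a median of 0.85, and 8 of the 9 were called when XRN1-null replicate 2 was left out, with HOXA11 at an FDR of 0.00674. Of the 8 HOXB genes 4 rose (HOXB2, HOXB5, HOXB6 and HOXB7), although HOXB7 lost its call without either XRN1-null replicate (FDR 0.018 and 0.0393) and HOXB2 without replicate 1 (FDR 0.00757), of the 4 HOXD genes 3 (HOXD9, HOXD10 and HOXD11), and of the 7 HOXC genes only HOXC4, with a log2 fold change of 0.64. Against 22.9% of all genes, 100% of the HOXA, 50% of the HOXB, 14.3% of the HOXC and 75% of the HOXD genes thus rose. The median log2 fold changes were 0.41 for the HOXB, 0.24 for the HOXC and 0.74 for the HOXD genes. Large rises occurred in paralog groups 5, 6 and 9 of cluster A, group 5 of cluster B and group 9 of cluster D. In contrast HOXB9 and HOXC9 changed by 0.26 and 0.27 and were not called. HOXB9 passed with library totals (FDR 0.00296) and with DESeq2 (FDR 0.0017). The terminal genes of the clusters differed as well, from 0.80 for HOXA13 to 0.16 for HOXB13, 0.22 for HOXD13 and -0.06 for HOXC13, and HOXA13 was the called one among them. HOXD10 and HOXD11 overlap on the same strand, so their rows may share reads and their rises may not be separate observations. Differences between clusters or paralogs were not tested.

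**Figure D2:**
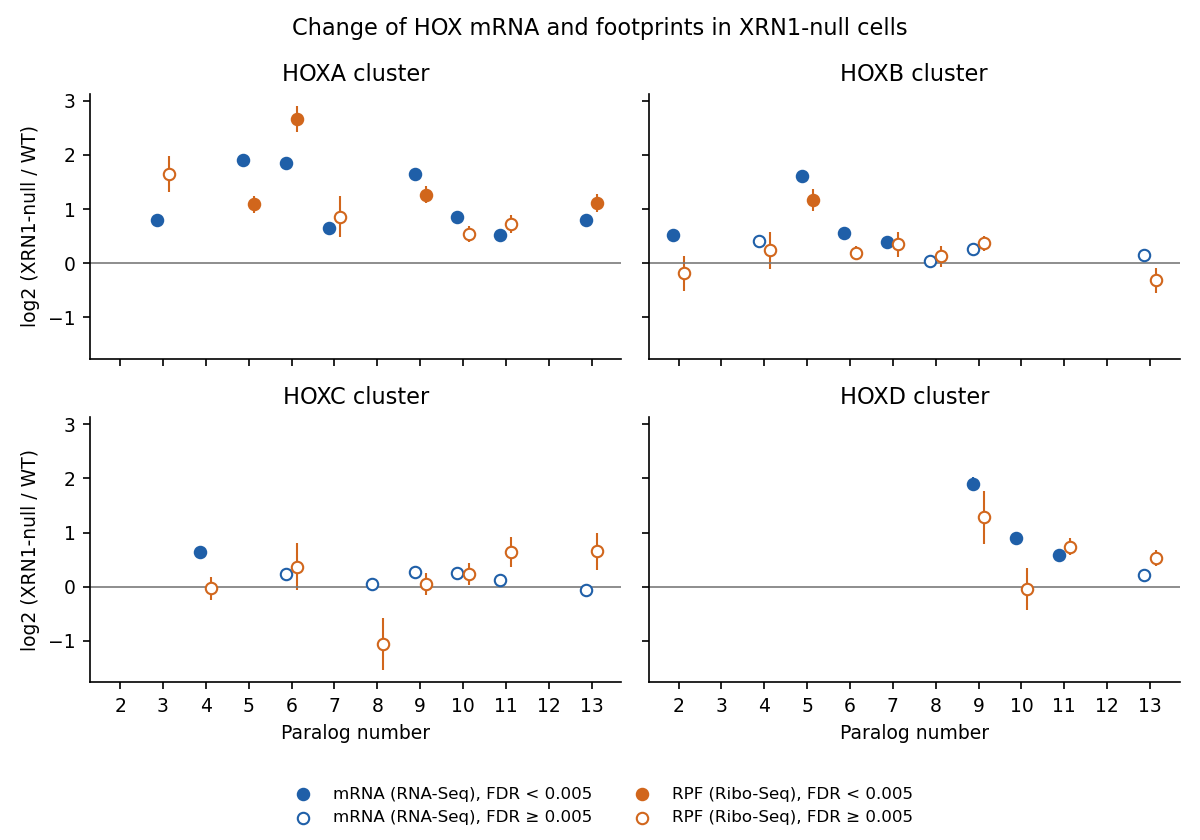
Change of mRNA (blue) and RPF (orange) of HOX genes from paralog number 2 on in XRN1-null relative to WT cells, by cluster and paralog number, as log2 fold change with its standard error and filled where the FDR is below 0.005. All plotted genes of the HOXA cluster lie above 0 in both assays, while the HOXC genes stay between -0.06 and 0.64 in mRNA.

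HOXA5 (chromosome 7, 27180671 to 27183300, minus strand, GRCh37) rose in mRNA by about as much as HOXD9 and HOXA6. It had 100 and 88.8 CPM in the WT libraries and 353 and 351 CPM in the XRN1-null libraries, a log2 fold change of 1.90 (SE 0.0773, FDR 4.11e-06). Its footprints were at 21.4 and 25.5 CPM in WT against 50.9 and 51.2 CPM in XRN1-null cells, a log2 fold change of 1.09 (SE 0.161, FDR 0.00296). Both genotypes were thus separated without overlap in each assay, and the fold change was larger in mRNA (3.72-fold) than in RPF (2.13-fold). HOXA5 contributes to patterning of the neck and thorax, and its annotated exons overlap those of no other gene.

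HOXA6 (chromosome 7, 27185015 to 27190222) had the largest rise in footprints. Its mRNA was at 23.5 and 21.6 CPM in WT against 83.2 and 79.4 CPM in XRN1-null cells (log2 fold change 1.85, SE 0.0733, FDR 3.66e-06). The RPF were at 3.65 and 6.2 CPM in WT, from 7 and 27 counts, and at 32.8 and 36.2 CPM in XRN1-null cells, from 132 and 116 counts. Every XRN1-null library was above every WT library, and the RPF change of 2.67 (SE 0.242, FDR 0.000114) exceeded that of the mRNA, at 6.36-fold against 3.6-fold. HOXA6 shares exon sequence with ENSG00000272801 on its own strand and with HOXA-AS3 on the other, and the strand setting of the counting is not given in the sources used here.

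HOXA9 (chromosome 7, 27202057 to 27214799), a posterior HOX gene also known from blood progenitors and leukaemia, went from 141 and 141 CPM of mRNA in WT to 437 and 448 CPM in XRN1-null cells. The log2 fold change was 1.65 (SE 0.0621, FDR 3.07e-06). In Ribo-Seq the values were 40.1 and 34.9 CPM against 93.1 and 84.9 CPM, a log2 fold change of 1.27 (SE 0.151, FDR 0.00114). The read-through row HOXA10-HOXA9, which is not one of the 86, held 131 and 132 CPM of mRNA in WT and 415 and 419 CPM in XRN1-null cells. With values that close to those of HOXA9 the 2 rows may hold the same reads, and they are not 2 observations. HOXA9 also overlaps HOXA10-AS on the other strand.

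HOXB5 (chromosome 17, 46668619 to 46671141), the paralog of HOXA5 in the B cluster, had 29.7 and 30.9 CPM of mRNA in WT and 92.7 and 92.7 CPM in XRN1-null cells (log2 fold change 1.61, SE 0.0642, FDR 3.66e-06). Its RPF were at 13.5 and 11.7 CPM in WT against 26.6 and 29.3 CPM in XRN1-null cells (log2 fold change 1.17, SE 0.199, FDR 0.00454). The groups did not overlap in either assay, but the RPF call was the one nearest to the threshold and was lost with DESeq2 (FDR 0.0141), with the minimum of 10 counts (FDR 0.0056) and without XRN1-null replicate 2 (FDR 0.00663). HOXB5 overlaps HOXB-AS3 on the other strand.

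HOXA13 (chromosome 7, 27233122 to 27239710), which shapes the distal limb and the urogenital tract, rose less in mRNA than the other 4, from 26 and 25.2 CPM in WT to 46.2 and 42.8 CPM in XRN1-null cells (log2 fold change 0.80, SE 0.0747, FDR 8.73e-05). In footprints it rose from 18.2 and 20.4 CPM to 44.7 and 40.3 CPM (log2 fold change 1.11, SE 0.168, FDR 0.0031). For HOXA6 and HOXA13 the RPF fold exceeded the mRNA fold, and for HOXA5, HOXA9 and HOXB5 the mRNA fold was the larger; HOXA5, HOXA6, HOXA9, HOXA13 and HOXB5 were each called in mRNA with any of the 4 RNA-Seq libraries left out. HOXA13 overlaps the non-coding RNA HOTTIP on the other strand.

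**Figure D3:**
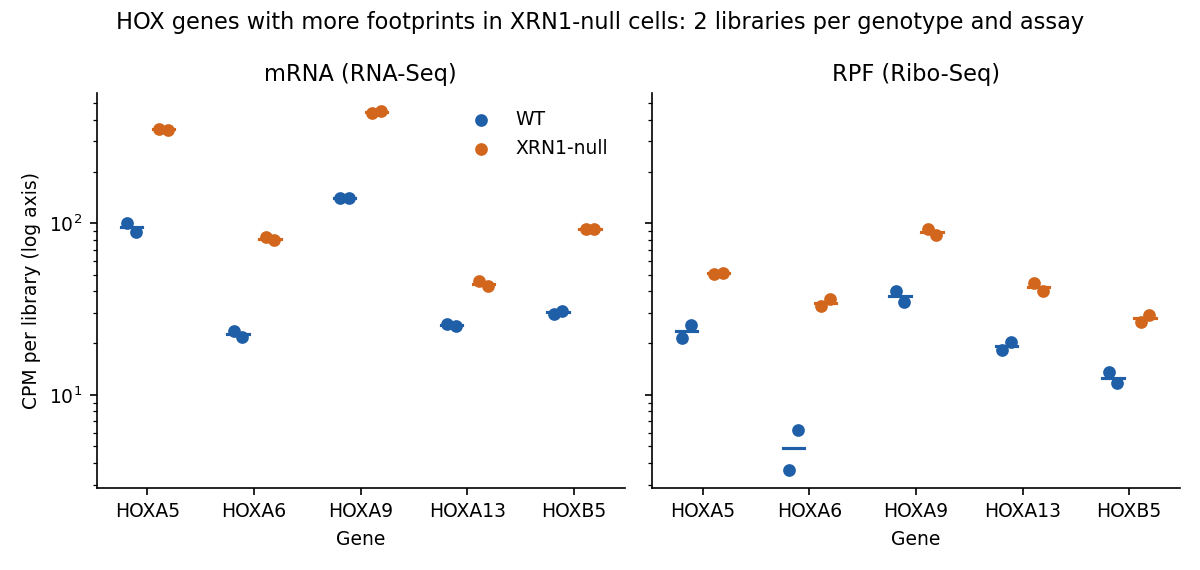
CPM of the 5 HOX genes called in Ribo-Seq, on a log axis, with each point a library and each line the mean of 2 libraries. In both assays and for each gene the XRN1-null libraries (orange) lie above the WT libraries (blue), and the widest gap is that of HOXA6 footprints, from 3.65 and 6.2 CPM to 32.8 and 36.2 CPM.

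These 5 were the genes of the group called higher in Ribo-Seq, and 0 were called lower. DESeq2 also called 5 higher and 0 lower, with ZIC2 (FDR 0.00492) in place of HOXB5. The share of 5.81% higher compares with 0.633% of all genes, and 1.14% of all genes were lower. All 5 were also called in mRNA. At an FDR below 0.05, 18 were higher and 4 lower in RPF, against 7.07% and 8.38% of all genes. An unadjusted p below 0.05 in RPF was reached by 39 of the 86, 28 of them higher and 11 lower, against 16.2% and 16.8% of all genes. Ribo-Seq had less depth, and the count depended on which library was included: 18 genes were higher and 3 lower without WT replicate 1, 17 higher and 3 lower without WT replicate 2, 6 higher and 1 lower without XRN1-null replicate 1, and 4 higher without XRN1-null replicate 2. All 9 HOXA genes had both XRN1-null libraries above both WT libraries in RPF, against 32.1% of all genes (in 32.3% both lay below), with a median log2 fold change of 1.09. Among those not called, HOXA3 went from 2.6 and 3.22 CPM to 9.68 and 9.36 CPM (log2 fold change 1.65, FDR 0.0102). HOXD9, with an mRNA change close to that of HOXA5 (from 8.44 and 6.39 CPM in WT up to 27.3 and 28 CPM in XRN1-null cells, log2 fold change 1.89, SE 0.127, FDR 2.2e-05), had RPF of 1.56 and 1.84 CPM in WT against 3.72 and 4.99 CPM in XRN1-null cells, a log2 change of 1.28 with a FDR of 0.0959. Nearest outside the RPF threshold stood ZIC2 (0.76, FDR 0.00619), which passed with library totals (FDR 0.00378) and with DESeq2, and TBX3 (0.74, FDR 0.00855).

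Overlapping genes touch many of these values. With the exons of all annotated transcripts, 20 of the 86 genes overlap another annotated gene on the same strand and 38 overlap one on the other strand, and 39 overlap none. Among the 39, 10 rose and 7 fell in mRNA (25.6% and 17.9%, against 22.9% and 23.2% of all genes), so that the share of rises was near the background without the overlapping genes. In RPF 1 of the 39 was called, HOXA5 (2.56%, against 0.633%). Of the 9 HOX genes without an overlap, 3 rose in mRNA (HOXA5, HOXB7 and HOXD9) and 0 fell, with a median log2 fold change of 0.22 and both XRN1-null libraries above both WT libraries in all 9.

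HOX mRNAs are known targets of the miR-196 microRNAs, whose genes lie inside the HOX clusters, and for this reason the sites for these microRNAs were located. The mature sequences from RefSeq, with the seed (bases 2 to 8) in capitals, are:
hsa-miR-196a-5p: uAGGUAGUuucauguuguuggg
hsa-miR-196b-5p: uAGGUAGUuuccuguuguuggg
hsa-miR-10a-5p: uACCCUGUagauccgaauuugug
The first 2 share their seed. The site matched was ACTACCTA for miR-196 and ACAGGGTA for miR-10a, in the mRNA sequence of the 3′ UTR of 1 transcript per gene. The miR-196 site was held by 8 of the 86 genes and by 154 of 9765 genes of the table with a 3′ UTR (1.58%). Among the 8 were HOXA5, HOXA7 (with 4 sites), HOXA9, HOXB6, HOXB7, HOXC8 (with 2 sites) and GATA6. Sites of a gene that rose in both assays, of a gene that rose in mRNA and of a gene that was not called are shown with 11 bases on each side and the match in capitals:
HOXA5: tttttattcaaACTACCTAtattccttgtg
HOXB6: aaggagcacatACTACCTAgaagtaagaag
HOXC8: atctttaacatACTACCTAaagggaacctg
They begin at base 441 of 783 in the HOXA5 3′ UTR, at base 472 of 662 in that of HOXB6 and at base 864 of 1388 in that of HOXC8. Their mRNA log2 fold changes were 1.90 (HOXA5), 0.65 (HOXA7), 1.65 (HOXA9), 0.56 (HOXB6), 0.40 (HOXB7), 0.05 (HOXC8) and 0.13 (GATA6), so the first 5 were called and HOXC8 and GATA6 were not. The miR-10a site was held by HOXA3, KLF11 and GATA6 and by 2.06% of all genes. Such a match is a description of the sequence and not evidence that the site is used.

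The cofactors of HOX proteins moved in both directions. MEIS1 had 16.5 and 14.6 CPM of mRNA in WT and 43.5 and 45.4 CPM in XRN1-null cells (log2 fold change 1.51, SE 0.0864, FDR 1.32e-05), and 13.5 and 14.5 CPM of RPF against 22.8 and 34.3 CPM (log2 change 0.99, FDR 0.017). PBX3 had 41.4 and 34.9 CPM of mRNA in WT and 76.7 and 74.2 CPM in XRN1-null cells (log2 fold change 0.98, SE 0.0882, FDR 7.18e-05), and its RPF change was 1.13 (FDR 0.0176). MEIS2 rose by 0.62 in mRNA. In contrast PBX2, at 110 and 113 CPM in WT against 85.9 and 84.7 CPM in XRN1-null cells, fell by 0.39 on the log2 scale (SE 0.0613, FDR 0.00102), a value whose reads its pseudogene copy could share and that was not called without either XRN1-null replicate (FDR 0.02 and 0.0257). IRX3, a TALE factor of the Iroquois family, went from 10.1 and 11.6 CPM to 6.85 and 5.81 CPM and fell by 0.78 (SE 0.131, FDR 0.0014), and without XRN1-null replicate 2 its FDR was 0.00841. In all 5 MEIS and PBX genes the RPF log2 change was above 0 (median 0.72), and 0 of the 5 passed the test.

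PAX3, a paired-box factor of neural crest and muscle precursors, rose in mRNA without a matching rise in footprints. Its mRNA was at 10.7 and 10.9 CPM in WT against 23.2 and 21.9 CPM in XRN1-null cells (log2 fold change 1.06, SE 0.0879, FDR 5.09e-05), whereas its RPF were at 8.33 and 10.8 CPM in WT against 8.94 and 10.9 CPM in XRN1-null cells (log2 change -0.02, SE 0.265, FDR 0.973). The groups were far apart in mRNA and overlapped in RPF. PAX9 rose by 0.78 in mRNA, and PAX6 changed by 0.23 and was not called. The single LIM homeobox gene, LHX4, went from 4.15 and 5.18 CPM to 8.01 and 9.04 CPM (log2 fold change 0.87, SE 0.148, FDR 0.00139, and 0.00641 without XRN1-null replicate 2), and it shares its locus with ACBD6 on the other strand.

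The sine oculis homologs split. SIX2 fell by 0.67 on the log2 scale in mRNA (SE 0.0638, FDR 9.17e-05), from 77.9 and 74 CPM in WT to 47.7 and 47.7 CPM in XRN1-null cells, and its RPF went from 20.3 and 19.5 CPM to 13.7 and 11.5 CPM (log2 change -0.64, FDR 0.0564). SIX5 fell by 0.88 (SE 0.0835, FDR 9.07e-05), from 24.6 and 24.8 CPM to 13.8 and 13 CPM. SIX4 rose by 0.55. The kidney paralogs HOXA11 and HOXD11 rose by 0.52 and 0.58, while HOXC11 changed by 0.12 and was not called.

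Outside the homeobox families the changes went both ways. Among the 6 SOX genes SOX2, a factor of pluripotent and neural progenitor cells, rose by 0.62 (FDR 0.00676 and 0.0111 without XRN1-null replicate 1 or 2), and SOX12 fell by 0.91 (SE 0.0657, FDR 2.85e-05), from 107 and 113 CPM in WT to 59 and 57.6 CPM in XRN1-null cells, with RPF of 15.6 and 19.5 CPM in WT against 9.19 and 12.8 CPM in XRN1-null cells. SOX4, SOX7, SOX9 and SOX13 were not called. Of the 19 FOX genes 5 rose in mRNA (FOXA1, FOXC1, FOXO3B, FOXP1 and FOXP2, by 0.36 to 0.86) and 3 fell, shares of 26.3% and 15.8% beside the 22.9% and 23.2% of all genes. FOXF1, a forkhead gene of the mesenchyme around gut and lung, fell by 1.40 in mRNA (SE 0.13, FDR 8.16e-05), from 10.1 and 9.68 CPM to 4.02 and 3.44 CPM. Its RPF went from 8.33 and 6.89 CPM to 1.74 and 2.5 CPM (log2 change -1.81, FDR 0.0142). With 3.92 and 3.78 FPKM in WT against a mean of 1.46 in XRN1-null cells, it met the minimum of 2 FPKM only through the WT libraries, and such a filter keeps falls of this kind, so its place as the lowest value in both assays is no result. Its relative FOXF2 fell by 0.57 in mRNA and had an RPF change of -1.06 (FDR 0.0174). FOXP1 and FOXP2 rose and FOXP4 fell by 0.32. Without XRN1-null replicate 1 or 2, the calls of FOXA1 (FDR 0.0108 and 0.0112), FOXP1 (0.0124 and 0.0521) and FOXP4 (0.0303 and 0.0748) were lost, and that of FOXC1 was lost without replicate 2 (0.00584). FOXM1, at 351 and 327 CPM in WT against 311 and 297 CPM in XRN1-null cells, was not called (log2 change -0.16, FDR 0.0736) but passed without WT replicate 2 (FDR 3.97e-05).

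**Figure D4:**
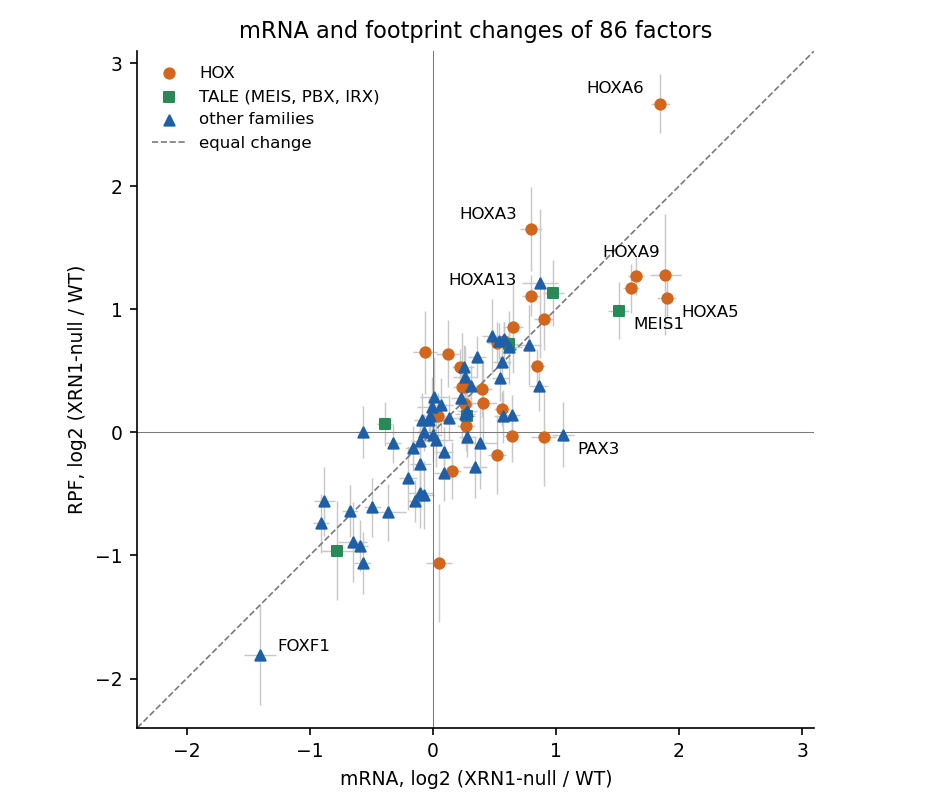
mRNA change against RPF change of the 86 genes in XRN1-null relative to WT cells, as log2 fold changes with standard errors, with HOX genes as orange circles, TALE genes as green squares, other families as blue triangles and a dashed line where both changes are equal. HOX genes reach furthest to the upper right, up to 2.67 in RPF for HOXA6, PAX3 lies at 1.06 in mRNA and -0.02 in RPF, and FOXF1 lies lowest at -1.40 and -1.81.

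Of the 7 KLF genes, which bind GC-rich promoter elements, 0 rose and 2 fell in mRNA (28.6%, near the 23.2% of all genes that were lower). KLF9 fell by 0.57 (SE 0.0634, FDR 0.000185), from 53.7 and 52.3 CPM to 35.8 and 35.6 CPM, while its RPF stayed at 15.1 and 17.2 CPM in WT against 15.1 and 18.1 CPM in XRN1-null cells. KLF16 fell by 0.49 (FDR 0.000499, and 0.00564 without XRN1-null replicate 1). ZIC2, a factor of the neural plate, rose by 0.58 in mRNA (FDR 0.000546, and 0.00626 without XRN1-null replicate 2), from 99.7 and 109 CPM to 147 and 165 CPM, with RPF of 70.8 and 80.2 CPM against 130 and 129 CPM. Among the 5 TBX genes TBX3 and TBX18 rose by 0.54 and 0.57, and TBX1, a gene of the pharyngeal arches, fell by 0.59 (SE 0.0618, FDR 0.000146), from 64.1 and 62.9 CPM to 42.8 and 41.8 CPM, with RPF of 37.5 and 29.2 CPM against 19.4 and 14.4 CPM (log2 change -0.92, FDR 0.014). GATA3 fell by 0.65 (SE 0.118, FDR 0.00196), from 9.01 and 9.32 CPM to 5.5 and 6.17 CPM, a call lost without XRN1-null replicate 1 (FDR 0.0186) or replicate 2 (FDR 0.00532). With 2.93 and 3.04 FPKM in WT against 1.79 and 2.01 FPKM in XRN1-null cells, GATA3 lay close to the minimum of 2 FPKM. Such a filter can keep falls of this kind. GATA2, the most abundant of the 4 GATA genes, had a log2 change of 0.00 with 43.4 and 47.9 CPM in WT against 47 and 44.3 CPM in XRN1-null cells.

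Of the 33 genes with higher mRNA 29 had an RPF change above 0, and of the 12 with lower mRNA 10 had one below 0. These shares of 87.9% and 83.3% compare with 83.1% and 94.1% of all genes called in mRNA. The exceptions among the higher ones were HOXB2, HOXC4, HOXD10 and PAX3, and those among the lower ones were PBX2 and KLF9, with RPF changes of 0.07 and 0.00. HOXD10, for example, had 33.9 and 27.6 CPM of mRNA in WT and 58.5 and 55.8 CPM in XRN1-null cells. Its RPF were at 3.65 and 4.59 CPM in WT against 3.72 and 4.68 CPM in XRN1-null cells. These RPF rest on 7 and 20 counts in WT and on 15 and 15 counts in XRN1-null cells. HOXD10 overlaps HOXD11 on the same strand, so part of its mRNA reads may belong to HOXD11.

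The test of TE used 1 model over all 8 libraries, in which the interaction between genotype and assay was the change in TE. With edgeR 0 of the 86 genes passed in either direction, against 0.0495% of all genes higher and 1.78% lower, and 19 genes had an unadjusted p below 0.05, 15 of them lower and 4 higher, against 14.6% and 8.76% of all genes. At an FDR below 0.05, 0 were higher and 2 lower, against 1.02% and 6.46% of all genes. HOXA5 was nearest to the threshold, with a log2 TE change of -0.81 (SE 0.177, FDR 0.0171), and with DESeq2 it was the 1 gene called lower (-0.77, FDR 0.0033). PAX3 followed with -1.08 (SE 0.257, FDR 0.0241). HOXA6 and HOXA3 had the largest positive values, 0.82 (SE 0.258, FDR 0.0766) and 0.86 (SE 0.352, FDR 0.167). Both genes overlap ENSG00000272801 on their own strand, whose reads they may hold, and the WT footprints of HOXA3 rest on 5 and 14 counts. In the edgeR fit over all libraries the HOXA cluster thus held the lowest-FDR decrease and the largest positive values, none of them called. With 1 library left out, the TE change of HOXC6 ran from -0.31 to 2.02. HOXC8 had a value of -1.13, which ran from -2.02 to -0.47 with 1 library left out, and its RPF went from 9 and 28 counts in WT to 6 and 14 counts in XRN1-null cells. As mRNA is the denominator of TE, the mRNA and TE changes of a gene are not independent.

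Genes that work with these factors were listed by role. Of 5 EYA and DACH partners of the sine oculis homologs 3 rose in mRNA and 1 fell. EYA3 rose by 1.14, EYA1, the partner of SIX2 in the kidney, fell by 0.83, and DACH1 rose in both assays (0.71 in mRNA, FDR 8.66e-05, and 0.99 in RPF, SE 0.161, FDR 0.00378), from 34.9 and 45.3 to 86.2 and 77.1 CPM of RPF. DACH1 was the only gene of all the lists to pass in RPF. Of 5 LIM-domain partners 0 rose and 4 fell, among them LMO4 by 0.62, and of 4 Groucho corepressors TLE4 rose by 0.82 and 2 fell. The Polycomb proteins, which keep HOX genes silent, gave 9 rises and 5 falls among 25 genes. The methyltransferases EZH1 and EZH2 rose by 0.99 and 0.91 and their partner SUZ12 by 0.40, while CBX2 and PHC1 fell by 0.47 and 0.50. Of 13 Trithorax proteins, which keep HOX genes active, 7 rose, among them ASH1L by 0.82 and KMT2A by 0.63, and 2 fell, with SETD1A at -0.73. Of 5 regulators of FOXO factors 2 rose and 1 fell. Of 29 other homeobox genes of development 5 rose and 4 fell with a median of 0.03, and of 5 SP factors and 4 other TALE genes 0 passed. Over all lists 27 of 95 genes rose and 19 fell in mRNA (28.4% and 20%, against 22.9% and 23.2% of all genes), and 0 passed in TE; the GLI genes and GATA cofactors had no row in the table.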

How the data were processed

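RNA-Seq and Ribo-Seq of WT and XRN1-null HEK293T cells were analysed from the deposited gene table, which holds raw counts per gene for 8 libraries. Per the labels and the methods, the authors extracted total RNA and prepared RNA-Seq libraries of polyadenylated RNA with a TruSeq kit, so that 3′ fragments of mRNA can be counted, removed rRNA reads with Bowtie2, aligned reads to hg19 with TopHat2, kept footprints with clear periodicity, counted with QuasR and kept genes above 2 FPKM. Tool versions, annotation and strand setting are not given in the sources used here. The deposited tables of the authors' own comparisons (fold changes and p-values) were not used.

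Counts were tested with edgeR 4.0.16 in R 4.3.3 (TMM scaling within each assay, quasi-likelihood test, Benjamini-Hochberg adjustment over all 10105 genes, FDR below 0.005). Each assay had its own fit on genotype alone, and TE came from the genotype-by-assay interaction over all libraries. A log2 fold change is XRN1-null relative to WT, and SE is its standard error, derived from the fold change and the F statistic of the test. The steps were tested on simulated data. CPM and FPKM used the TMM-scaled totals and the deposited gene width. Coordinates, exons, homeoboxes and 3′ UTR come from GENCODE annotation and sequence of GRCh37 (the build hg19), and microRNAs from RefSeq. Tables were summarised with Python 3.11.15, numpy 2.4.6 and pandas 2.3.3.

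Genes named with values were those called in RPF or TE, the 8 largest rises and 8 largest falls of called mRNA with separated libraries, the 6 highest WT levels per length and the highest of each family; others named were chosen after their values were seen. The 86 genes and the gene lists were chosen with earlier results of these data known, so counts over a list carry no test. Alternatives were RLE factors, library totals, at least 10 counts in every library, DESeq2 1.42.0, a replicate block, each library left out, FDR below 0.05 and, chosen after seeing the data, genes without exon overlap. Some genes and sequences of the group are not reported here.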

Additional observations from a re-analysis of the deposited data

How the results depend on the processing

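No called value of the 86 genes changed sign under the alternatives run. For mRNA, 33 genes higher and 12 lower became 34 to 38 and 11 to 13 with RLE factors, library totals, DESeq2 or the replicate block, and 25 to 44 and 8 to 14 with 1 library left out, where the lone library is assumed to vary like the others. Without the genes whose exons overlap another gene, a setting chosen after seeing the data, 10 were higher and 7 lower in mRNA and 1 was higher in RPF. The 5 genes higher in RPF became 3 with at least 10 counts in every library, where fewer genes were tested, 18 at an FDR below 0.05, and 4 to 18 with 1 library left out; 0 lower became 4 at an FDR below 0.05 and 0 to 3 with 1 library left out. In TE 0 lower became 1 with DESeq2, 1 with a replicate block over cultures and 2 at an FDR below 0.05. In RPF the replicate block gave 16 higher and 4 lower, among them MEIS1, PBX3 and ZIC2 (higher) and FOXF1 and TBX1 (lower). The labels give a shared number but no shared batch, and the correlation of same-numbered deviations was 0.174 for mRNA, 0.0811 for RPF and 0.0781 for TE over 2 pairs, and that between RNA-Seq and Ribo-Seq was 0.345 in WT and 0.0252 in XRN1-null cells, so the numbers were not taken to pair the samples. Where counts moved, the cause was not tested. Ribo-Seq depth limits the genes with few footprints, down to 1 count in a WT library for LHX4. Counts of reads are not counts of molecules, so SEs cover the spread between libraries only, 2 per group and moderated over all genes.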
